A study of Macaca mulatta with 7 samples.

Results

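Imprinted genes are expressed mainly from the maternal or mainly from the paternal copy, and 10 of them were examined in RNA from rhesus macaque sperm: SNRPN, UBE3A, PEG3, GRB10, KCNQ1, IGF2R, PEG10, MEST, DLK1 and PLAGL1. They were chosen by name, and all 10 are among the 18282 genes used. The samples were 3 libraries labelled Maltreated, from animals aged 5.67 to 5.78 years, and 4 labelled Control, aged 5.72 to 5.92 years. Total RNA was taken from sperm cells passed over a PureSperm density gradient, in both groups alike. The title of the series names early life stress as its subject, and the labels do not say what the maltreatment was. The counts are listed under a different subject number for each library, but the labels do not state in words that each is a separate animal. The p-values measure the spread between these libraries, which may in part be technical.

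The marks that imprint a gene are laid down in the germ line, differently in sperm and egg, and are kept through fertilisation into the tissues of the offspring. Mature sperm make little or no new RNA, and the RNA they carry is largely left from spermatogenesis. Such RNA is known to be fragmented. A transcript level in sperm says nothing of which parental copy it came from, and these files hold no allele counts.

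The values are read counts on annotated exons, called sense where the read is on the same strand as the gene and antisense where it is on the other strand. Depth was 30715268, 6160996 and 10690315 sense counts in the Maltreated libraries, and 5316383 to 9847743 in the Control libraries. Levels are given as CPM (counts scaled to a common library total of sense counts, with TMM factors that adjust for RNA composition), and between genes only as CPM per kilobase of exon. A count of 3, used as the limit of detection, equals 0.0998 to 0.555 CPM, for counting error only. Sums over marker genes are scaled to the total of sense counts alone, without TMM factors. The 12 sperm and spermatid markers summed to 46678 to 100169 CPM in the Maltreated libraries and 48482 to 61139 CPM in the Control libraries, and 11 or all 12 of them had a count in each library. The 14 leukocyte markers summed to 11.6, 52.6 and 1063 CPM in Maltreated libraries 1 to 3, and to 9.34, 11.8, 50.1 and 720 CPM in Control libraries 1 to 4. Maltreated 3 and Control 4 thus stand apart in this sum. In Control 4 CD74 had by far the most counts of these markers (2670), followed by C1QB with 341. PTPRC had 21 counts there, against 36 in Maltreated 1.

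**Figure D1:**
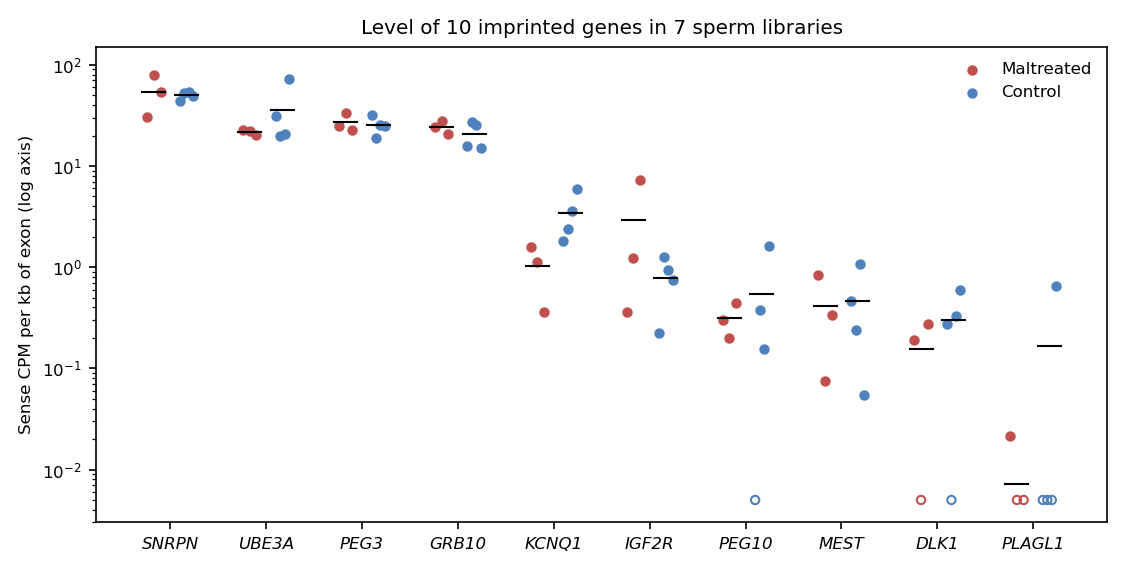
Sense CPM per kilobase of exon on a log axis for each of the 10 genes, Maltreated libraries in red at the left of each pair and Control libraries in blue at the right. Each point is 1 library, the black line is the mean of a group, and open circles at the bottom are libraries with 0 counts. SNRPN, UBE3A, PEG3 and GRB10 form an upper set above 10 CPM per kilobase in every library. PEG3 is there by exons that it shares with ZIM2.

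The 10 genes fell into an upper and a lower set. SNRPN averaged 54.4 CPM per kilobase in Maltreated libraries and 50.2 in Control libraries, PEG3 27.0 and 25.3, GRB10 24.2 and 20.9, and UBE3A 21.9 and 35.9. By its mean over all 7 libraries each of these 4 genes stood between the 88.2 and the 94.2 percentile of all 18282 genes. The place of PEG3 rests on exons that it shares with another gene, ZIM2. On its other exons the mean was 1.08 CPM per kilobase. SNRPN, GRB10 and UBE3A also had most of their counts on few exons. GRB10 averaged 178 CPM per kilobase on exons 1 to 4 and 2.80 on exons 5 to 16. UBE3A averaged 423 on exons 2 to 4 and 10.1 on exons 5 to 13. SNRPN averaged 414 on exon 1, and all its exons overlap another gene, SNURF. Below these 4 genes came IGF2R, at 2.95 CPM per kilobase in Maltreated and 0.790 in Control libraries, and KCNQ1 at 1.03 and 3.46. PEG10, MEST, DLK1 and PLAGL1 stood between the 14.3 and the 31.7 percentile. Within the upper set the ranges over libraries overlapped between neighbours in this order, with SNRPN at 30.7 to 78.4 CPM per kilobase, UBE3A at 19.6 to 72.5, PEG3 at 19.04 to 33.7 and GRB10 at 15.1 to 28.0. The lowest SNRPN library was above the highest GRB10 library, and the spread resolves no other order within the upper set. The ranges of KCNQ1 and IGF2R overlapped too, as did those of PEG10, MEST, DLK1 and PLAGL1, so no order is resolved among these.

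The design poses 1 contrast, Maltreated over Control, and none of the imprinted genes passed it. Of the 10, 8 had enough sense counts for the fit across all genes, 4 with a higher and 4 with a lower fitted mean in Maltreated libraries, and their median log2 fold change was -0.02. Over all 10719 genes tested the median was also -0.02. No gene of the table passed (0 called, 0.0%; edgeR's quasi-likelihood test with Benjamini-Hochberg adjustment), 191 had an unadjusted p under 0.05, and DESeq2 called 3 (0.028%), none of them among the 10. The adjusted p was 0.999 for each of the 8 genes in edgeR's test. For KCNQ1 alone of the 8 the groups did not overlap in CPM, against 3.59% of all tested genes (385 of 10719).

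SNRPN encodes SmN, a core protein of the spliceosome's small nuclear ribonucleoproteins, and is paternally expressed. It lies on chromosome 14 from 1848963 to 1859532 on the plus strand, in the coordinates of the deposited files (the sources used here name no genome build). The chromosome names of all genes here are also those of the deposited coordinates, in which COMMD1 is on a chromosome named 2a. They need not match the usual rhesus chromosome numbers. Its sense level was 34.4, 87.8 and 60.6 CPM in Maltreated libraries 1 to 3, against 49.2, 59.4, 60.7 and 55.7 CPM in Control libraries 1 to 4. The Maltreated libraries spanned the whole Control range on both sides. The log2 fold change was 0.11 ± 0.41 (SE, n = 3 and 4).

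Most of the SNRPN counts lay on 1 exon. The first of its 8 exons, 122 bases from 1848963 to 1849084, held 64.1%, 90.4% and 86.8% of the sense counts in Maltreated libraries 1 to 3, and 87.1%, 80.6%, 89.4% and 98.3% in Control libraries 1 to 4. Pooled over the libraries its share was 81.7%. The median share of the first exon was 1.69% over the 7676 genes with at least 8 exons and 100 counts, and the share in SNRPN was at the 99.9 percentile. All 8 exons also overlap the annotated SNURF, the upstream reading frame of the same transcript, so the files count the same reads for both genes. Under SNURF, whose annotation starts further upstream, this exon lies within the third of 4. There the first exon held 2.81% of the pooled counts, the second 34.4% and the third 55.1%, so the share of a first exon depends on which annotation is read. SNURF had 99.2 ± 39.2 CPM in Maltreated and 87.6 ± 21.6 CPM in Control libraries (SD, n = 3 and 4). For SNURF the log2 fold change was 0.18 ± 0.39 (SE).

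GRB10, an adaptor that dampens signalling from the insulin and insulin-like growth factor receptors, is imprinted in a tissue- and promoter-dependent way. It lies on chromosome 7 from 57752725 to 57896052, plus strand. It had 113, 131 and 96.0 CPM in Maltreated libraries, against 74.5, 127, 119 and 70.5 CPM in Control libraries. Both groups overlapped, with 2 of the Control libraries below all Maltreated ones. The log2 fold change was 0.21 ± 0.34 (SE).

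The counts of GRB10 lay at its 5′ end. The first 4 of 16 exons, which are 11.1% of its exon bases, held 77.3%, 90.8% and 91.3% of the counts in Maltreated libraries 1 to 3, and 87.6%, 84.0%, 95.4% and 99.5% in Control libraries 1 to 4. In the pooled libraries these exons held 84.9%. An equal part of the exons at the 5′ end held a median of 25.4% over all genes with enough exons and counts, and GRB10 was at the 97.3 percentile. The last exon, with 64.9% of the exon bases, held 0.771% of the counts. Maltreated 1, the deepest library, had 769 counts on exons 5 to 16 together, against 2 in Control 4.

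UBE3A is a ubiquitin ligase that is expressed from the maternal copy in neurons and whose loss there causes Angelman syndrome. It lies on chromosome 14 from 2223628 to 2323271, minus strand. Its level was 106, 104 and 94.9 CPM in Maltreated libraries, and 145, 91.4, 95.5 and 337 CPM in Control libraries 1 to 4. The Maltreated libraries lay close together at 102 ± 6.06 CPM (SD, n = 3), while Control 4 stood far above every other library. The log2 fold change was -0.72 ± 0.46 (SE), and without Control 4 it was -0.13 ± 0.30.

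In UBE3A, as in GRB10, a few exons near the 5′ end carried most counts. Exons 2 to 4 of 13, which are 4.79% of the exon bases, held 74.5%, 84.4% and 74.8% of the counts in Maltreated libraries and 88.8%, 94.5%, 70.0% and 41.8% in Control libraries 1 to 4. Control 4 differed from the others in that each of the 9 exons from 5 to 13 held exactly 117 counts. With such runs of equal counts on at least 4 neighbouring exons counted once, the mean was 102 ± 6.06 CPM in Maltreated libraries and 123 ± 37.5 CPM in Control libraries (SD, n = 3 and 4), with 164 CPM in Control 4, and the log2 fold change was -0.29 ± 0.33 (SE). On exons 2 to 4 alone UBE3A had 79.4 ± 8.54 CPM in Maltreated and 106 ± 34.9 CPM in Control libraries (SD, n = 3 and 4).

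Equal counts along a gene bear on how the exon files are read. A single count covered all 1933 bases of the last UBE3A exon on the antisense strand in Maltreated 2, and a single antisense count covered all 7461 bases of the last PEG3 exon in Control 4. A count can therefore stand for an alignment that spans more than the exon, and the covered fraction of an exon is not used here as a measure of how much of it was sequenced.

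PEG3, a paternally expressed zinc finger protein with roles in growth and behaviour, lies on chromosome 19 from 51853183 to 51885174, plus strand. It had 206, 280 and 187 CPM in Maltreated libraries, against 265, 158, 210 and 207 CPM in Control libraries. The log2 fold change was 0.09 ± 0.28 (SE), the smallest in size of the 8 tested genes. The groups lay on top of each other.

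Most PEG3 counts cannot be assigned to PEG3 alone. Of its 9 exons, 7 overlap ZIM2, an imprinted zinc finger gene that shares its promoter and 5′ exons with PEG3 in human. These 7 exons are 9.20% of the exon bases and held 95.6% of the pooled counts. The other exons, which include the last exon of 7461 bases, held 701 of 15781 counts (4.44%), in each library 370, 2 and 77 in Maltreated and 94, 43, 60 and 55 in Control libraries. On these exons the level was 6.42 ± 5.99 CPM in Maltreated and 9.51 ± 1.19 CPM in Control libraries (SD, n = 3 and 4), and Maltreated 2, with the highest level on the shared exons, had the fewest there. Per kilobase the mean over all libraries was 1.08 CPM on these exons and 272 CPM on the shared ones.

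**Figure D2:**
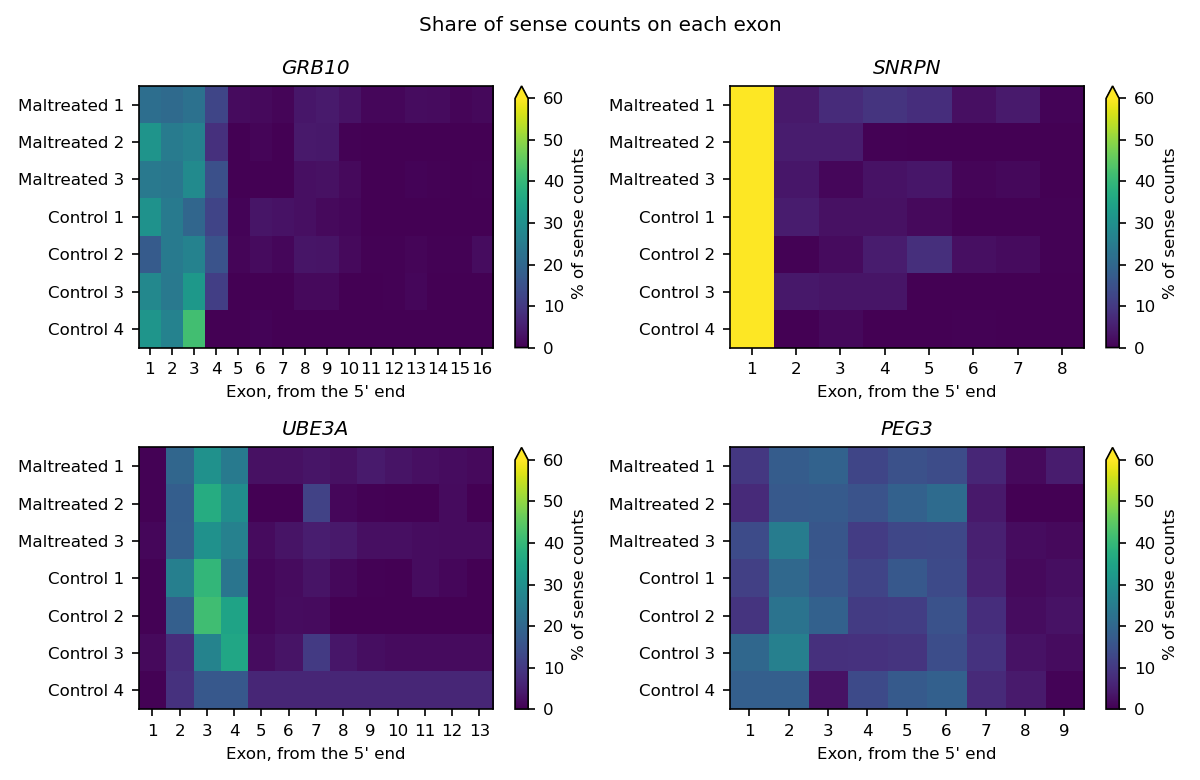
Share of each library's sense counts on each exon, counted from the 5′ end, for GRB10, SNRPN, UBE3A and PEG3, with Maltreated libraries in the upper rows and Control libraries below. Colour gives the percent, cut at 60; exon 1 of SNRPN is above 60 in every library, and the even band on exons 5 to 13 of UBE3A is in Control 4.

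KCNQ1, the pore-forming subunit of a potassium channel of heart and epithelia, contains the promoter of an antisense noncoding RNA that silences its neighbours on the paternal copy. It lies on chromosome 11 from 2237302 to 2640837, plus strand. Maltreated libraries 1 to 3 had 4.89, 3.49 and 1.12 CPM (147, 21 and 13 counts). Control libraries 1 to 4 had 5.61, 7.38, 11.2 and 18.5 CPM (53, 41, 66 and 100 counts). Every Maltreated library was below every Control library, although the gap between Maltreated 1 and Control 1 was small beside the spread in either group. The means were 3.17 ± 1.90 CPM in Maltreated and 10.7 ± 5.71 CPM in Control libraries (SD), and the log2 fold change was -1.75 ± 0.95 (SE), with an adjusted p of 0.999 in edgeR's test.

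Most KCNQ1 counts lay on 1 exon of 120 bases, but not in every library. Exon 11 of 17 held 56.5%, 100% and 0% of the counts in Maltreated libraries and 64.2%, 90.2%, 100% and 81% in Control libraries. Its pooled share was 73.0%, at the 98.8 percentile of the share taken by the most counted exon, whose median over genes was 24.5%. Its counts were 83, 21 and 0 in Maltreated libraries and 34, 37, 66 and 81 in Control libraries. On this exon the groups again did not overlap, at 2.08 ± 1.84 CPM in Maltreated and 9.11 ± 5.01 CPM in Control libraries (SD, n = 3 and 4); this is part of the same measurement and not a further test. Maltreated 3 had its highest count, 5, on exon 10. The lowest level was that of Maltreated 3 and the highest that of Control 4, the libraries with the highest leukocyte marker sums. The part of leukocyte RNA in the difference was not tested. Without Control 4 the log2 fold change was -1.36 ± 0.89, and without both -0.95 ± 0.98. With any single library left out it was between -2.20 and -1.34.

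IGF2R, the receptor that carries insulin-like growth factor 2 and lysosomal enzymes to the lysosome, is maternally expressed in mouse. It lies on chromosome 6 from 160824172 to 160958336, plus strand. Its level was 3.43, 11.8 and 69.0 CPM in Maltreated libraries 1 to 3, and 2.12, 12.1, 8.82 and 7.03 CPM in Control libraries 1 to 4. Only Maltreated 3 stood outside the Control range. The log2 fold change of 1.91 ± 0.99 (SE) was the largest in size of the 8 tested genes, and without Maltreated 3 it was 0.02 ± 1.18.

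Maltreated 3 also differed in where the IGF2R counts lay. It had counts on 47 of 48 exons, against 17 and 6 exons in Maltreated 1 and 2, and 5, 9, 9 and 7 in Control libraries 1 to 4. The sum of the leukocyte markers was also highest in Maltreated 3, where 13 of 14 had a count. Only the B cell marker MS4A1 was at 0 there. In Maltreated 1, Control 3 and Control 4 also 13 of 14 had a count. In Maltreated 3 CD68, a macrophage marker, had 4171 counts and CD74, of antigen-presenting cells, had 2829. Not every marker was highest there: C1QB had 17 counts, against 341 in Control 4. The sum of the 12 testis somatic markers was also highest in Maltreated 3, at 287 CPM, where 7 of the 12 had a count. It was 39.2 and 27.9 CPM in Maltreated 1 and 2 (12 and 6 markers with a count). In Control libraries it was 12.6 to 145 CPM (8 to 10 markers with a count). In Control 4, whose leukocyte sum was 720 CPM with 2670 counts of CD74 but 98 of CD68, IGF2R stood at 7.03 CPM on 7 exons. The part of such cells in the level of IGF2R was not tested, and in bulk RNA more cells of a type cannot be told apart from more RNA per cell.

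**Figure D3:**
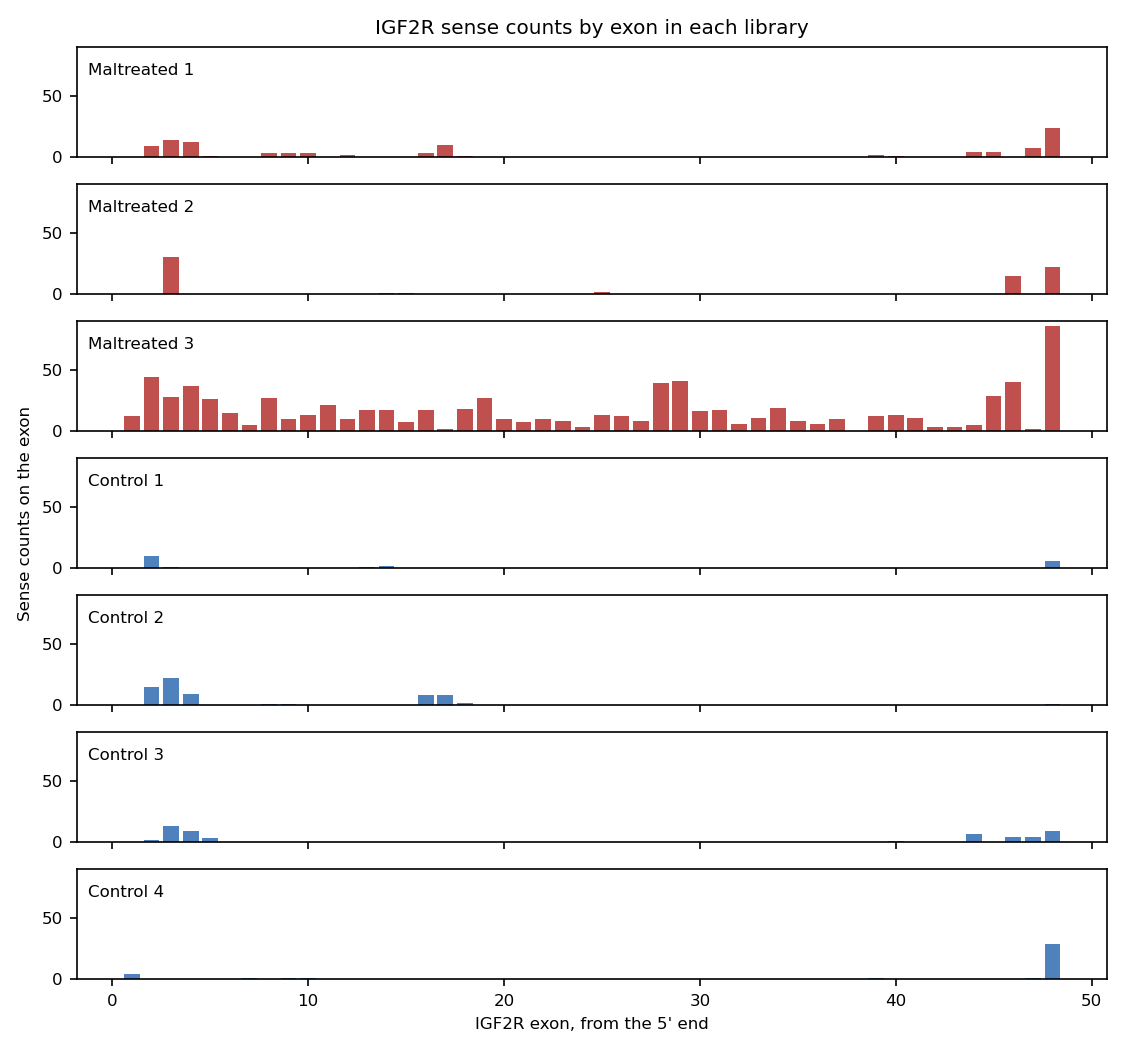
Sense counts of IGF2R on each of its 48 exons, numbered from the 5′ end, with 1 row per library, Maltreated libraries in red above Control libraries in blue. Maltreated 3 has counts on 47 exons; no other library has counts on more than 17.

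PEG10, MEST, DLK1 and PLAGL1 were the lowest of the 10 genes, and each was at or under the limit of 3 counts in at least 1 library. PEG10 derives from a retrotransposon and is needed for the placenta. It lies on chromosome 7 from 119708146 to 119721603, plus strand, and had 2.00, 1.33 and 2.93 CPM in Maltreated libraries, against 0, 2.52, 1.02 and 10.7 CPM in Control libraries. The deposited sum lists its long exon, of 6358 bases, a second time; with each exon taken once it had 34, 4 and 17 counts in Maltreated and 0, 7, 6 and 29 counts in Control libraries. Exons 1 and 2 had counts only in Maltreated 1 and Control 3. These exons overlap and had equal counts, 4 on each in Maltreated 1 and 3 on each in Control 3. Reads there may thus still be counted more than once.

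MEST, a paternally expressed gene of the hydrolase-fold family that is active in mesoderm, lies on chromosome 7 from 156183850 to 156199998, plus strand. Its sense level was 5.62, 0.498 and 2.24 CPM in Maltreated libraries and 3.07, 1.62, 7.29 and 0.370 CPM in Control libraries. The range within either group was wider than the difference between their means, 2.79 ± 2.60 and 3.09 ± 3.01 CPM (SD, n = 3 Maltreated and 4 Control). The log2 fold changes of PEG10 and MEST were -0.76 ± 1.54 and -0.14 ± 1.30 (SE). Without Control 4 the value for PEG10 was 0.83, and without Control 3 that for MEST was 0.72.

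DLK1, a non-canonical Notch ligand, and PLAGL1, a zinc finger regulator of a network of imprinted genes, had too few counts for the fit. DLK1 had 9, 0 and 5 counts in Maltreated libraries and 4, 0, 3 and 5 in Control libraries, and in Control 4 these were 1 count on each of its 5 exons. PLAGL1 had 2, 0 and 0 counts in Maltreated libraries and 0, 0, 0 and 11 in Control libraries, all on the last of its 6 exons. DLK1 lies on chromosome 14 from 163228873 to 163237077 and PLAGL1 on chromosome 6 from 122899036 to 122925507, both on the plus strand. For PLAGL1 in 5 of the libraries, and for DLK1 in Maltreated 2 and Control 2, a level of up to 3 counts cannot be told from none.

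Several imprinted loci make antisense transcripts, among them the long RNA that runs against UBE3A in neurons. Antisense counts were 6.15% to 9.69% of all counts in Maltreated libraries and 6.85% to 12.1% in Control libraries. Strands were compared within each library, in 1 fit over 14 columns. Of 7551 genes tested, 6295 had more sense counts (83.4%) and 196 more antisense counts (2.6%). Of the imprinted genes 6 were tested; 5 had more sense counts and none more antisense counts.

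The sense strand exceeded the antisense strand most in SNRPN and GRB10. The log2 ratio of antisense over sense was -8.89 ± 1.24 (SE; adjusted p = 6.84e-07) in SNRPN and -8.51 ± 1.08 (adjusted p = 1.81e-07) in GRB10, by edgeR's quasi-likelihood test over 7 libraries. It was -5.60 ± 0.98 in UBE3A (adjusted p = 1.26e-05), -5.58 ± 0.79 in PEG3 (9.17e-07) and -5.13 ± 1.30 in IGF2R (0.000777), by edgeR's test as well. The median over all genes tested was -5.76. SNRPN had 9 antisense counts in all and 3719 sense counts; GRB10 had 32 and 7782.

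MEST was the exception among the 6, with a log2 ratio of -0.15 ± 1.37 and an adjusted p of 0.917 in edgeR's test. It had 74, 25 and 4 antisense counts in Maltreated libraries and 8, 30, 7 and 33 in Control libraries. Antisense counts exceeded sense counts in Maltreated 2, Control 2 and Control 4. The last exon, the only one that overlaps the neighbouring COPG2 on the opposite strand, held 99 of the 181 antisense counts. COPG2 encodes a coat protein of Golgi vesicles. The remaining antisense counts came as equal counts along the gene: 4 on each of exons 1 to 10 in Maltreated 1, 3 on every exon in Control 4, and 1 on most exons in Control 2.

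**Figure D4:**
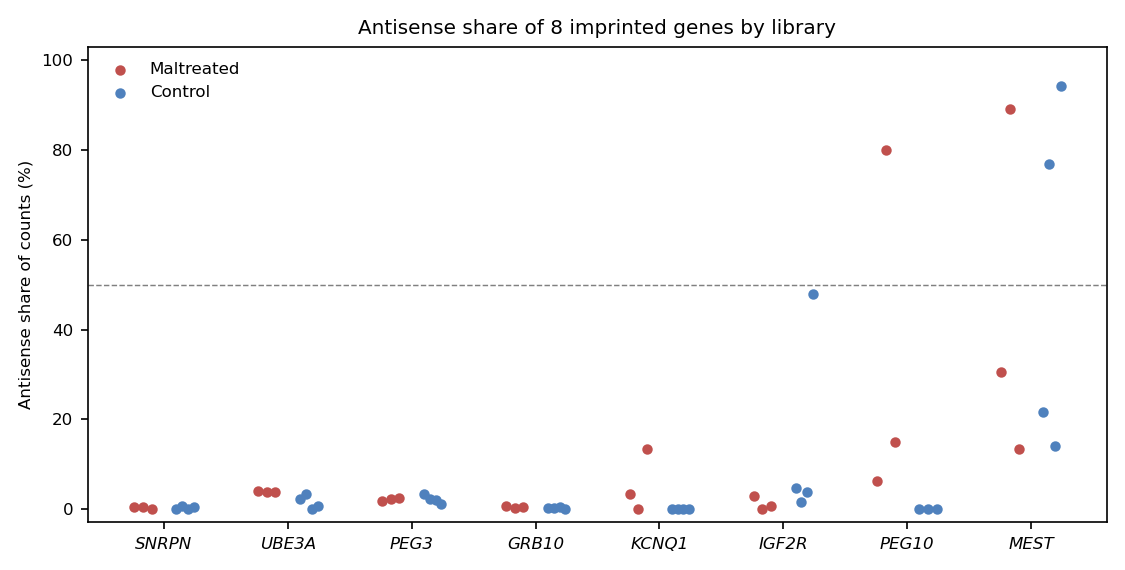
Antisense counts as a percent of sense plus antisense counts in each library, for the 8 genes other than DLK1 and PLAGL1, with Maltreated libraries in red at the left and Control libraries in blue at the right of each pair. Points above the dashed line at 50 have more antisense than sense counts: 3 libraries of MEST and Maltreated 2 of PEG10.

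Between the groups, 3 imprinted genes could be tested on antisense counts and none passed; the adjusted p was 0.997 for each in edgeR's test. Of all 4382 genes tested none passed (0.0%), 110 had an unadjusted p under 0.05, and DESeq2 called 16 (0.365%). UBE3A had 49.1, 41.4 and 47.9 antisense CPM (scaled to the antisense total) in Maltreated libraries, against 39.0, 35.9, 0 and 17.8 in Control libraries, from 131, 25 and 43 and from 32, 18, 0 and 14 counts. These groups did not overlap, as in 4.36% of all genes tested on antisense counts (191 of 4382). With runs of equal exon counts counted once the UBE3A levels were 49.1, 24.9 and 37.9 antisense CPM in Maltreated libraries, against 39.0, 23.9, 0 and 5.10 in Control libraries, and the groups overlapped. The log2 fold changes were 0.99 ± 1.51 in UBE3A, 0.14 ± 1.24 in PEG3 and -0.34 ± 1.43 in MEST (SE). Of the UBE3A antisense counts, 92 of 263 lay on exon 3.

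The remaining antisense counts were few or lay in 1 library. IGF2R had 3, 0 and 6 antisense counts in Maltreated libraries and 1, 1, 2 and 35 in Control libraries, with 33 of the 35 on exon 45. PEG10 had 4, 32 and 6 in Maltreated libraries and 0 in each Control library, where up to 3 counts cannot be told from none. All lay on its long exon, which the deposited sum counts a second time. It did not have enough antisense counts to be tested. KCNQ1 had 5, 0 and 2 antisense counts in Maltreated libraries and 0 in all Control libraries.

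Among other imprinted genes no group difference was called either. Of 61 further genes listed, 52 are used here and 28 were tested; 13 had a higher and 15 a lower fitted mean in Maltreated libraries, with a median log2 fold change of -0.03 and 0 called (0.0% of all genes). The genes were also grouped by the allele under which each was listed, which these counts do not test. The 12 listed as paternally expressed had a median of 0.15 and the 11 listed as maternally expressed 0.10. The 5 listed as varying in allele with isoform or tissue had -0.52, all 5 being lower. For 2 of these 5 the sign rested on Control 4: without it 2 were higher and 3 lower, GNAS at 1.03 and NAA60 at 0.24, and the median was -0.35. The noncoding RNAs KCNQ1OT1, AIRN, H19 and MEG3 were not analysed here.

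COMMD1, a regulator of copper handling and NF-kappa-B, had the most counts of this list, with 1573 ± 407 CPM in Maltreated and 1897 ± 417 CPM in Control libraries (SD, n = 3 and 4). Of its counts 97.7% lay on the second of 3 exons, 281 bases long. ZIM2, with its shared exons, had 715 ± 151 and 657 ± 139 CPM in Maltreated and Control libraries. TRAPPC9, of a vesicle-tethering complex, had 487 ± 36.8 and 604 ± 181 CPM, and ZFAT, a zinc finger protein of lymphocytes, 397 ± 5.48 and 342 ± 79.7 CPM, in the same order. COPG2 had 151 ± 69.4 CPM in Maltreated and 130 ± 50.7 CPM in Control libraries. Per kilobase of exon these 5 genes ran from 2216 CPM in Maltreated and 2672 CPM in Control libraries for COMMD1 down to 48.5 and 41.9 CPM for COPG2. The levels of ZIM2 count repeated exon entries, with 49796 sense counts in the deposited sums and 19323 with each distinct exon taken once. Exons 4 and 5 of ZIM2 also overlap, so even the lower count may hold reads more than once.

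The smallest unadjusted p among these genes was that of OSBPL5, a lipid transfer protein, with an adjusted p of 0.999 in edgeR's quasi-likelihood test. Its log2 fold change of -7.10 ± 2.86 (SE) rested on Control 4, which had 523 CPM, while the highest of the other libraries had 4.86 CPM. In Control 4 the gene had exactly 130 counts on 19 of its 22 exons, a pattern like that of UBE3A in the same library. Without Control 4 and Maltreated 3 the log2 fold change was -0.39. INPP5F, an inositol phosphatase, and ZNF331, a zinc finger protein, followed with log2 fold changes of -0.62 ± 0.41 and 2.17 ± 1.48. ZNF331 had 2.66, 13.9 and 1.21 CPM in Maltreated libraries, against 0.530, 3.60, 0 and 1.11 CPM in Control libraries, and without Maltreated 2 its value was 0.56. Without Control 4 the value for INPP5F was -0.35. On antisense counts NLRP2 (-2.47 ± 1.87), FAM50B (-2.21 ± 1.84) and COMMD1 (-1.65 ± 1.43) had the smallest unadjusted p, and none passed. Control 4 held 156 of the 243 antisense counts of NLRP2, whose log2 fold change was -0.86 without it. It also held 38 of the 80 antisense counts of COMMD1 in Control libraries, and without Control 4 and Maltreated 3 that value was -0.93.

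By strand, 18 of the other imprinted genes were tested; 14 had more sense counts (77.8%, against 83.4% of all genes) and 1, NNAT, more antisense counts (5.56%, against 2.6%). NNAT encodes a small membrane protein of developing brain. It had 693 antisense and 89 sense counts in the deposited sums, and a log2 ratio of 4.80 ± 1.39 (SE; adjusted p = 0.00266, edgeR's test). NNAT lies inside the intron of BLCAP, which is on the opposite strand. On the first NNAT exon the antisense counts were 111, 0 and 44 in Maltreated libraries and 18, 10, 109 and 51 in Control libraries. The first exon of BLCAP had nearly the same sense counts, 148, 0 and 45 in Maltreated and 19, 10, 109 and 52 in Control libraries. Reads of BLCAP and antisense reads of NNAT can thus not be told apart in these counts.

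Of 12 listed genes whose products set or keep imprints 8 were tested, and none passed the group test. CTCF, which binds insulators at imprinted loci, had 165 ± 9.90 CPM in Maltreated and 165 ± 16.9 CPM in Control libraries (SD, n = 3 and 4). CTCF had a log2 fold change of 0.00 ± 0.25 (SE). ARID4B, of a chromatin complex that acts at imprinted loci in mouse, had 345 ± 40.0 and 363 ± 152 CPM, and its relative ARID4A 11.3 ± 2.71 and 22.1 ± 15.6 CPM, in Maltreated and Control libraries. UHRF1, which guides maintenance methylation, had 38.0 ± 13.5 CPM in Maltreated and 47.0 ± 18.8 CPM in Control libraries. TRIM28, the co-repressor that protects imprints in the embryo, had 23.5 ± 12.6 CPM in Maltreated and 37.9 ± 15.8 CPM in Control libraries.

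NLRP5, of the maternal cytoplasmic complex of the egg, had 14.5 ± 6.18 CPM in Maltreated and 10.7 ± 1.42 CPM in Control libraries. CTCFL, the testis paralogue of CTCF, had 2.05 ± 1.30 and 4.47 ± 2.94 CPM, and DNMT3A, a de novo DNA methyltransferase of the germ line, 1.33 ± 1.09 and 2.88 ± 2.40 CPM, in Maltreated and Control libraries. Of the 8, 2 had a higher and 6 a lower fitted mean in Maltreated libraries, with a median log2 fold change of -0.50. All 7 that could be tested by strand had more sense counts, as did 83.4% of all genes.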

How the data were processed

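The deposited files hold, per the file headers and layout, counts of reads on each exon by strand, not normalized, and the fraction of each exon that the authors found covered; a series table gives the same per gene. STAR, featureCounts and bedtools are named, per the submitters' processing notes, without versions. The counts of each gene equalled the sums over its exon entries, so a read on several exons is counted on each, and 43085 of 233690 entries repeat an exon. RTN3 and ZC3HAV1, listed on both strands, were left out.

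Sense and antisense counts were fitted separately with edgeR 4.0.16 in R 4.3.3 (TMM, filterByExpr with a minimum count of 10, quasi-likelihood F test on the group), with Benjamini-Hochberg adjustment over all tested genes at 0.05. Strands were compared with library as a block, each column scaled to the sense plus antisense total of its library. DESeq2 1.42.0 was an alternative, and the fits were tested on simulated data. Standard errors are the log2 fold change over the root of F.

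The 10 genes, the lists and the tests were chosen with earlier results of these data known. Besides all 10, the genes named are, of the other imprinted genes, the 5 of highest mean CPM, the 3 with the smallest unadjusted p in each group comparison and those called with more antisense counts; all tested maintenance genes; and genes that overlap one of the 10. BLCAP, CD68, CD74, MS4A1, C1QB and PTPRC were named after their values were seen. The limit of 3 counts covers counting error only: without molecular identifiers, reads can be copies of 1 molecule. The closing section gives the effect of the alternatives: scaling, filter, tool, age, exon handling and libraries left out. Sequences were not used here.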

Additional observations from a re-analysis of the deposited data

Results flagged for a closer look

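In 17 values of the imprinted genes the highest or lowest of the 4 Control libraries was tested for its distance from the others, and 3 values met the criterion, all in Control 4. For normally distributed values chance alone marks about 5% of groups by this test, a rate that need not hold for counts near 0. The 3 values share a library. The antisense level of IGF2R in Control 4 was 44.6 CPM of the antisense total (35 counts), and the next highest Control library had 3.56. The sense level of PLAGL1 in Control 4 was 2.03 CPM (11 counts), with 0 in the other Control libraries. The antisense level of DLK1 in Control 4 was 2.55 CPM of the antisense total (2 counts), with 0 in the others, and 2 counts cannot be told from none. For PLAGL1 and DLK1, with 3 libraries at 0, any count in the fourth meets the criterion. Control 4 also had the highest leukocyte marker sum of the Control libraries, 720 CPM, and its part in these values was not tested.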

How the results depend on the processing

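Of 17 named results with a test, 7 kept their direction and call under all alternatives run: KCNQ1 on sense counts, UBE3A on antisense counts, and the strand ratios of IGF2R, UBE3A, PEG3, GRB10 and SNRPN. None of the 252 alternative values crossed the threshold, and 23 reversed in sign, all in results that had not passed the test. DESeq2 called 3 genes on sense counts and 16 on antisense counts; age as a covariate gave 1 call on sense counts, and no filter gave 24 on antisense counts. Without a filter 368 genes had more antisense than sense counts, against 196; with single libraries left out the number was 179 to 229.

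Without Control 4 and Maltreated 3 together, the log2 fold change of IGF2R was -0.029, of PEG10 0.51, of PEG3 on antisense counts -0.19 and of MEST on antisense counts 0.43. With age as a covariate it was 0.22 in UBE3A, -0.21 in GRB10 and 1.06 in PEG10. With runs of equal exon counts counted once, an alternative chosen after seeing the data, MEST on antisense counts was 0.12. Over single libraries left out the log2 fold change on sense counts was 0.02 to 2.42 in IGF2R, -0.12 to 0.22 in PEG3, -1.18 to 0.83 in PEG10, -1.17 to 0.72 in MEST and -0.26 to 0.40 in SNRPN. On antisense counts it was -0.13 to 0.82 in PEG3 and -0.87 to 0.21 in MEST, and the strand ratio of MEST was -0.80 to 0.41. Where no library is named, the cause was not tested.

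The labels number the libraries in each group. Same-numbered libraries showed little common deviation (correlations of 0.0749, 0.00993 and -0.0194). For Maltreated 1 the best correlated Control library was Control 1, while for Maltreated 2 and Maltreated 3 it had another number. So few libraries cannot show whether the numbers mark pairs. With the replicate number as a block, 0 genes were called on sense and 0 on antisense counts; the log2 fold change was 1.72 in PEG10 and -0.026 in PEG3 on antisense counts. PEG10 with each exon counted once had too few counts for the fit. The biological coefficient of variation was 0.858 for sense and 1.38 for antisense counts, with 5 residual degrees of freedom. The limit of 3 counts is 0.0998 to 0.555 CPM, and DLK1, PLAGL1, MEST and PEG10 were at or under it in some libraries.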
